A study of Rattus norvegicus with 4 samples.

Results

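The genes Col1a1, Col1a2 and Col3a1, which encode the chains of the fibrillar collagens type I and type III, were followed in the fracture callus of diabetic and control rats. Their 3 probes were taken by Ensembl gene ID from the 20174 gene probes of each array: ENSRNOG00000003897 for Col1a1, ENSRNOG00000011292 for Col1a2 and ENSRNOG00000003357 for Col3a1. All 3 IDs were present on all 4 arrays, each as 1 spot, with no bad quality flag and with no null in the authors' deposited table. All the animals were 12-week-old male Sprague–Dawley rats with a closed femoral shaft fracture held by an intramedullary wire. Diabetic rats had received 40 mg/kg streptozotocin, which kills the beta cells of the pancreas, into a vein and had blood glucose over 300 mg/dl; control rats had received sodium chloride and had normal blood glucose. Callus, the repair tissue at the break, was pooled from 5 animals per group on day 11 and day 5, and each pool was hybridised to 1 single-colour array, so no difference between 2 arrays has a replicate check.

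Fibrillar collagens are made as procollagen chains that wind into a helix of 3 chains, are secreted, trimmed and cross-linked into fibrils. Type I collagen, built from the products of Col1a1 and Col1a2, is the main protein of bone matrix and is made by osteoblasts and fibroblasts. Type III collagen, built from the product of Col3a1, is typical of granulation tissue and of young repair tissue, where it forms fibrils together with type I collagen.

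On day 11, RNA of the type III gene Col3a1 was lower relative to both type I genes in diabetic than in control callus in the main analysis. The Col3a1 to Col1a1 ratio in diabetic callus was 0.502-fold that of control callus on day 11, a change of -0.99 on the log2 scale. The Col3a1 to Col1a2 ratio was 0.560-fold. The direction against Col1a1 held under every setting tried. That against Col1a2 did not hold with the local background subtracted and no normalization, where the log2 differences were 0.12 for Col3a1 and 0.07 for Col1a2. On day 5 the Col3a1 to Col1a1 ratio was 0.803-fold, but the Col1a2 to Col1a1 ratio was also lower, at 0.754-fold, so that shift was not particular to type III collagen. Which of the 2 ratios was lower depended on the setting. The day 5 log2 differences of Col3a1 and Col1a2 were 0.37 and 0.44 in the authors' deposited table. With normexp on the local background they were 0.65 and 0.36. Col1a1 was higher in diabetic callus by 1.58-fold on day 11 and 1.40-fold on day 5, and Col1a2 by 1.42-fold and 1.06-fold. These directions of Col1a1 and Col1a2 held under every setting tried. Col3a1 in diabetic callus had 0.795-fold its control level on day 11, a direction that turned in 3 settings, and 1.12-fold on day 5. In the main analysis none of the 3 genes was at least 2-fold apart in any of the 4 comparisons of arrays, and none passed a limma test. With the local background subtracted and no normalization, Col1a1 was past 2-fold on day 5 (log2 difference 1.14), where 27.7% of 16438 genes were. Between the days in diabetic callus, Col1a1 (-1.08) and Col3a1 (-1.02) were past 2-fold in that setting, where 30.4% of 16450 genes were. With scaling to positive control 1, Col1a1 passed limma (adjusted p 0.0134), where 916 of 17661 genes passed, against 0 in the main analysis. In bulk callus, fewer cells that make a collagen and less of its RNA per cell cannot be told apart.

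Levels are given as fluorescence intensity, after subtraction of the level of blank spots (normexp, offset 50) and quantile normalization of the arrays. The spread of a measurement between animals could not be estimated. Spot-to-spot error was read from 2 positive control probes, each spotted 24 times on each array, at a signal below that of the collagens. The signal of positive control 1 had a coefficient of variation of 8.01% to 11.9%. From this spread over positions within arrays, the log2 difference of 1 spot between 2 arrays carries a standard deviation (SD) of 0.18 to 0.21. That SD is called the spot-to-spot SD here. It comes from control spots without quantile normalization, whereas the main differences of the collagens set against it are quantile normalized. The collagens keep their position, and differences between arrays at the same position had a smaller SD, 0.086 to 0.11. For positive control 2 the coefficient was 17.0% to 28.9%. This gives an SD of a difference of 0.75 to 1.63, more than any difference of a collagen in the 4 comparisons of arrays in the main analysis. At the same positions it was 0.30 to 1.29. Without the 1 or 2 spots per array under 0.5 of the array's median, the SD of a difference came down to 0.15 to 0.19. Each collagen is 1 spot per array, which gives no check against such a dim spot, and the multiples of the spot-to-spot SD given for the collagens hold only if there was none. The signal exceeded the limit set by blank spots for 78.6% to 81.2% of all genes, depending on the array. The other fibrillar collagens, the collagen-modifying enzymes and the markers of cell types were not analysed here, since 0 of the 20174 array IDs could be given a symbol from the reference table; the labelled tissue was therefore not checked beyond the high signal of the 3 collagens themselves.

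Col1a1 encodes the alpha 1 chain of type I collagen, the more abundant of its chains. Its normalized intensity on day 11 was 38010 in diabetic callus, against 23984 in control callus. On day 5 it was 49977 in diabetic callus and 35692 in control callus. Diabetic callus of day 5 was thus the highest array and control callus of day 11 the lowest. After quantile normalization the others were in between and 0.09 apart on the log2 scale, less than the spot-to-spot SD. Their unnormalized spot medians were 40080 in diabetic callus of day 11 and 34042 in control callus of day 5. The diabetic minus control log2 difference was 0.66 on day 11, which is 3.24 times the spot-to-spot SD of that comparison, and 0.49 on day 5, which is 2.68 times it. On day 11, 4.26% of 16732 tested genes had a higher difference than Col1a1, and on day 5, 3.25% of 17030.

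Col1a2 encodes the alpha 2 chain, which joins alpha 1 chains in the type I molecule. It had a normalized intensity of 42461 in diabetic callus on day 11, against 29922 in control callus. On day 5 it had 44799 in diabetic callus and 42461 in control callus. Control callus of day 11 was again the lowest array. After quantile normalization the other arrays lay within 0.08 of each other on the log2 scale, less than the spot-to-spot SD. In the authors' deposited table diabetic and control callus of day 5 were 0.44 apart, more than that SD. The equal values of diabetic callus on day 11 and control callus on day 5 come from quantile normalization, which gives probes of the same rank the same value. The unnormalized spot medians of those arrays were 45268 and 39778. The diabetic minus control log2 difference was 0.50 on day 11, with 6.34% of tested genes higher, and 0.08 on day 5, with 27.6% higher.

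The promoter of Col1a2 is shown because this gene and Col1a1 supply the chains of the same molecule and both had their lowest level in control callus of day 11. RefSeq's table held a promoter for 1 of the 3 genes. The 250 bases before the annotated start of Col1a2, at chr4:33518307-33518556 on the plus strand of GRCr8, were searched on both strands for the CCAAT box (CCAAT), the TATA box (TATAAA) and the GC box (GGGCGG), with matches in capitals.
Col1a2: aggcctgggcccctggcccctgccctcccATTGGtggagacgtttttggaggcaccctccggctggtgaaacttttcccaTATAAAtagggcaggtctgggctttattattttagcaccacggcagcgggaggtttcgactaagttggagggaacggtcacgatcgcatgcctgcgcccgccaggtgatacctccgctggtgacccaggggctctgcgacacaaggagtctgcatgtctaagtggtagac
The first capitals are a CCAAT box on the minus strand, 221 to 217 bases before the annotated start, and the second a TATA box, 170 to 165 bases before it. A CCAAT box was held by 34.0% of the 33469 promoters in the table over the same window, a TATA box by 12.9% and a GC box, which gave no match here, by 30.5%. These are matches of letters, and no binding was measured.

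Col3a1 encodes the only chain of type III collagen. Its normalized intensity on day 11 was 25585 in diabetic callus, against 32171 in control callus. On day 5 it was 38010 in diabetic callus and 33790 in control callus. Here the lowest array was diabetic callus of day 11, not control callus of day 11, and the highest was diabetic callus of day 5. The 2 control arrays were 0.07 apart on the log2 scale, and the day 5 arrays 0.17 apart, both less than the spot-to-spot SD. The day 5 gap was more than the SD of 0.10 at the same positions of positive control 1, and it was 0.37 in the authors' deposited table. The diabetic minus control log2 difference was -0.33 on day 11, or 1.61 times the spot-to-spot SD, with 10.5% of tested genes lower. Its sign is not settled: it was -0.03 in the authors' deposited table, 0.10 with normexp on the local background, 0.12 with the local background subtracted and 0.02 with scaling to positive control 1.

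**Figure D1:**
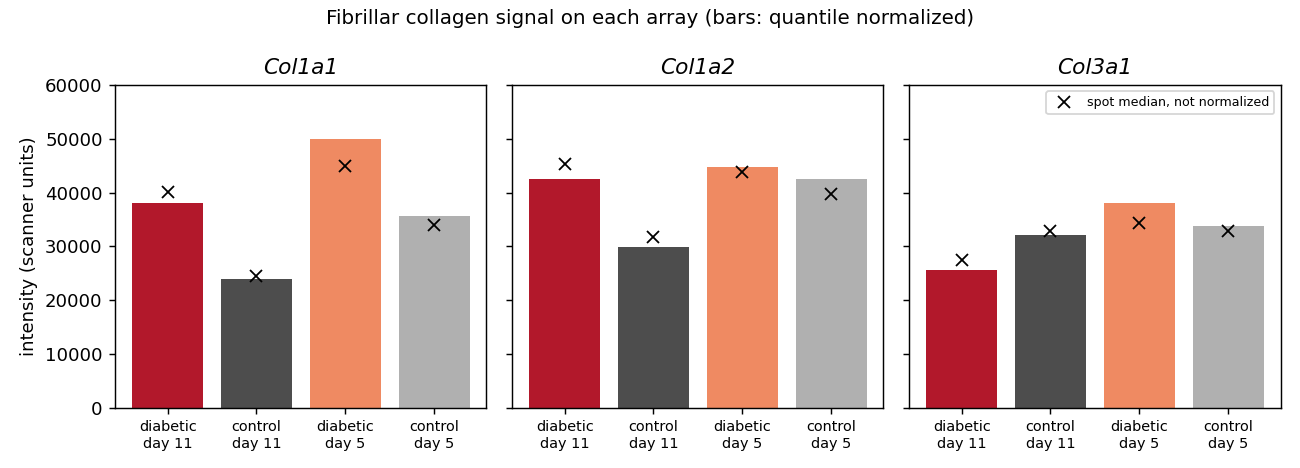
Normalized intensity (bars) and unnormalized spot median (crosses) of Col1a1, Col1a2 and Col3a1 on the 4 arrays, in scanner intensity units, 1 array per bar and hence no error bars. Both type I genes are lowest in control callus of day 11, at 23984 and 29922, while Col3a1 is lowest in diabetic callus of day 11, at 25585.

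Between diabetic and control callus, 0 of the 3 collagens were at least 2-fold apart on day 11, where 4.27% of 16732 genes were, and 0 of 3 on day 5, where 1.51% of 17030 genes were. The median log2 difference of the 3 collagens was 0.50 on day 11, beside 0.00 over all tested genes, and 0.17 on day 5, beside 0.01. On day 5 all 3 genes had a positive difference, and on day 11 both type I genes did. In the authors' deposited table, which was scaled by 1 factor per array, the values on day 11 were 23956 in diabetic and 12510 in control callus for Col1a1, 27060 and 16209 for Col1a2, and 16361 and 16735 for Col3a1. The ratios from the authors' deposited table on day 11 were therefore 1.91 for Col1a1, 1.67 for Col1a2 and 0.978 for Col3a1. On day 5 the authors' deposited table gave ratios of 1.63, 1.36 and 1.29 for the same genes.

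**Figure D2:**
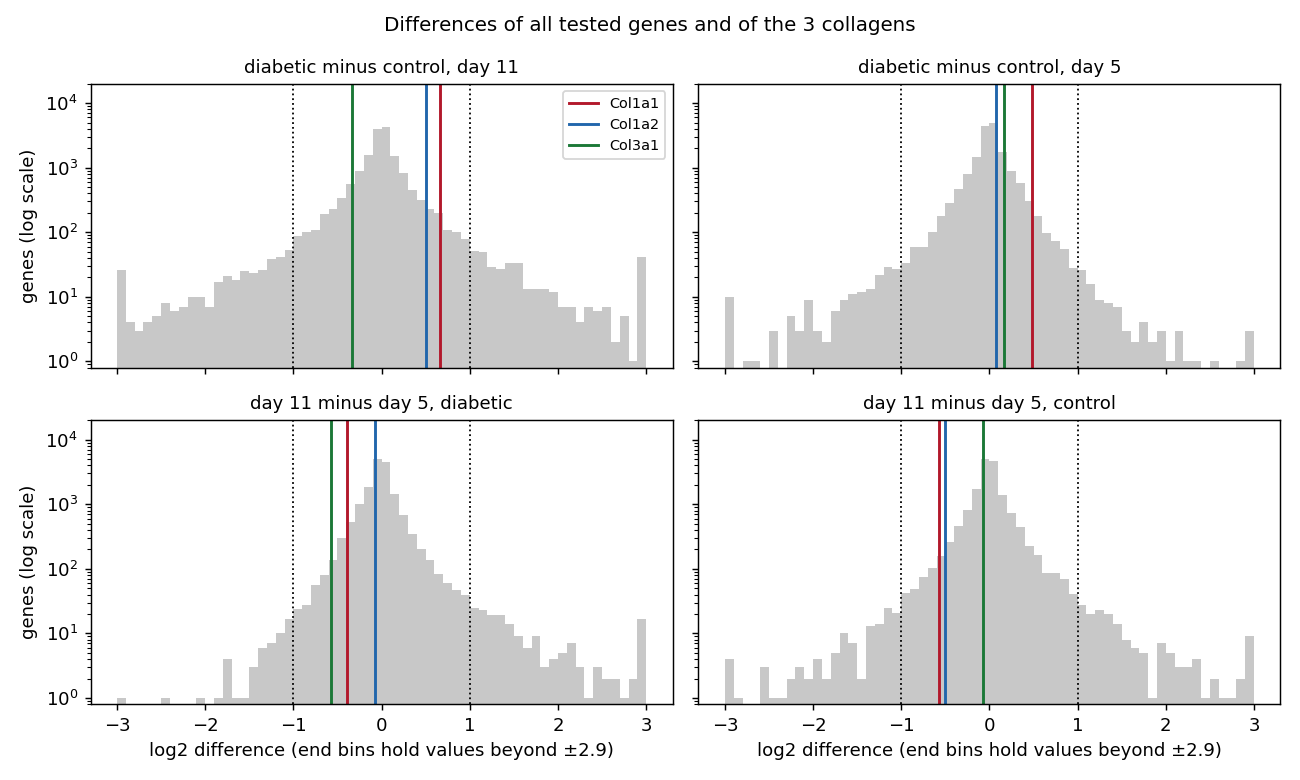
Histograms of the log2 differences of all tested genes in the 4 comparisons of arrays, with a logarithmic gene axis, the 3 collagens as coloured lines and 2-fold marked by dotted lines. Every collagen line lies inside the 2-fold lines; Col1a1 and Col1a2 lie to the right of zero in diabetic minus control callus on day 11, at 0.66 and 0.50, and Col3a1 to the left, at -0.33.

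The change of the Col3a1 to Col1a1 ratio between arrays does not depend on a factor per array, since such a factor cancels within an array. A factor that differs between whole and fractional spot values, described below, would not cancel where the genes differ in kind. In diabetic callus of day 11, Col1a1 had a whole number (40080) and Col3a1 a fractional one (27386). The part of this in the ratio was not tested. For diabetic against control callus it was -0.99 on the log2 scale on day 11 and -0.32 on day 5, where the spot-to-spot SD of such a change was 0.29 and 0.26 (2.30 and 1.05 from all spots of positive control 2). Under the other ways of making the values it was -0.996 to -0.555 on day 11 and -0.34 to -0.22 on day 5. Most of these are not separate checks. Of them, 2 change only which other genes are tested and could not move it. The 4 with no more than a factor per array leave out quantile normalization, and that factor cannot set them apart. They all gave -0.97 on day 11. Those that can move it most, by using the local background, gave -0.65 with normexp and -0.56 with plain subtraction on day 11. From day 5 to day 11 the ratio changed by -0.18 in diabetic callus, within the spot-to-spot SD and positive in both settings that use the local background, and by 0.50 in control callus. The ratio of Col1a2 to Col1a1 changed by -0.16 between diabetic and control callus on day 11 and by -0.41 on day 5. That of Col3a1 to Col1a2 changed by -0.84 and 0.09. With the local background subtracted, Col3a1 was not lower relative to Col1a2 on day 11, at log2 differences of 0.12 and 0.07.

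**Figure D3:**
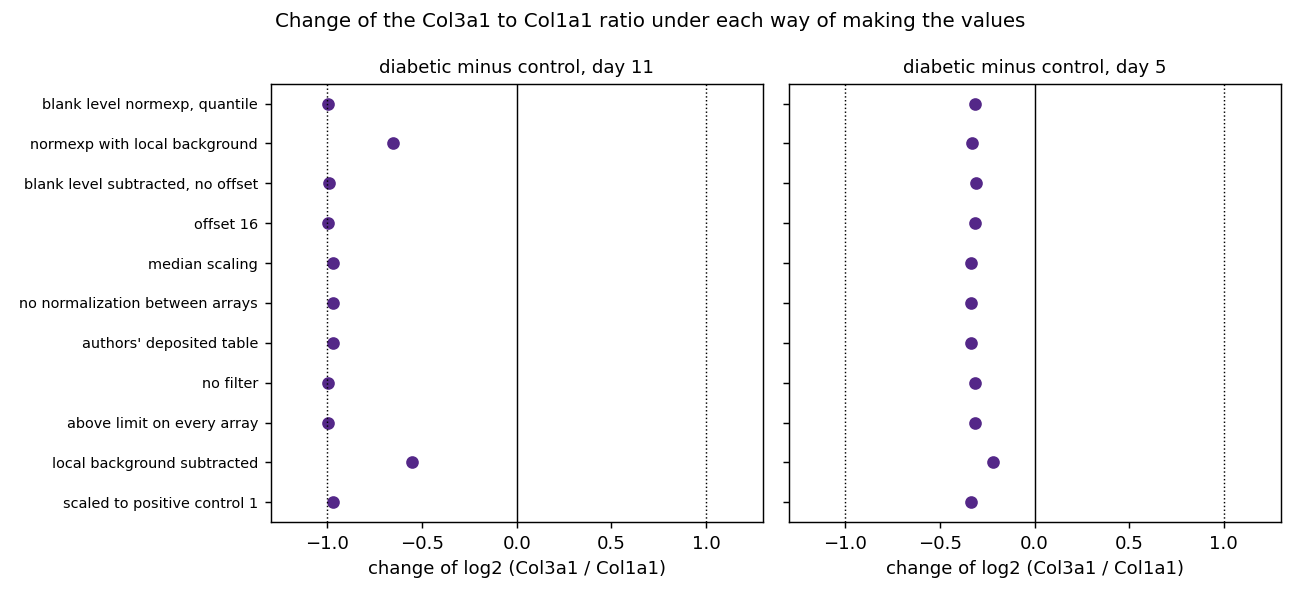
Change of the log2 ratio of Col3a1 to Col1a1, diabetic minus control callus, on day 11 (left) and day 5 (right), under 11 ways of making the values, 1 point each and no replicates. Points that differ only by a factor per array or a gene filter coincide by construction; on day 11 the points lie close to -0.99, with -0.65 and -0.56 for those that use the local background.

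Each of the 3 collagens had a lower level on day 11 than on day 5 in both conditions, except that without normalization between arrays Col1a2 in diabetic callus (0.05) and Col3a1 in control callus (0.00) did not, nor did Col1a2 in diabetic callus with scaling to positive control 1 (0.13). In diabetic callus the day 11 minus day 5 log2 difference was -0.39 for Col1a1, -0.08 for Col1a2 and -0.57 for Col3a1. In control callus it was -0.57 for Col1a1, -0.50 for Col1a2 and -0.07 for Col3a1. Again 0 of 3 collagens were at least 2-fold apart, where 1.35% of 16803 genes were in diabetic callus and 1.68% of 16893 in control callus. The median over the 3 genes was -0.39 in diabetic and -0.50 in control callus, beside -0.01 over all tested genes in each. Col3a1 in diabetic callus stood at 3.15 times the spot-to-spot SD and Col1a1 in control callus at 2.80 times, while Col1a2 in diabetic and Col3a1 in control callus were within it. These comparisons share arrays with those between the conditions.

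Averaged over both days, the diabetic minus control log2 difference was 0.57 (SE 0.0708) for Col1a1, 0.29 (SE 0.145) for Col1a2 and -0.08 (SE 0.168) for Col3a1. The limma fit over 4 arrays took day and condition as terms and left 1 residual degree of freedom per gene, so its error holds any change of the diabetes difference between the days. Its adjusted p was 0.275 for Col1a1, 0.488 for Col1a2 and 0.880 for Col3a1 over 17661 genes, of which 0 passed 0.05 (0%) and 2659 (15.1%) had an unadjusted p under 0.05. The unadjusted limma p of Col1a1 was 0.00886. Its adjusted p equals the lowest of all genes, but Benjamini-Hochberg adjustment gives that value to many genes at the same time. It does not make Col1a1 the top gene. Averaged over both conditions, the day 11 minus day 5 difference was -0.48 (SE 0.0708) for Col1a1, -0.29 (SE 0.145) for Col1a2 and -0.32 (SE 0.168) for Col3a1. The adjusted p values in limma were 0.525, 0.690 and 0.702 in the same order, with 0 of 17661 genes past 0.05 (0%) and 1612 (9.13%) at an unadjusted p under 0.05.

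**Figure D4:**
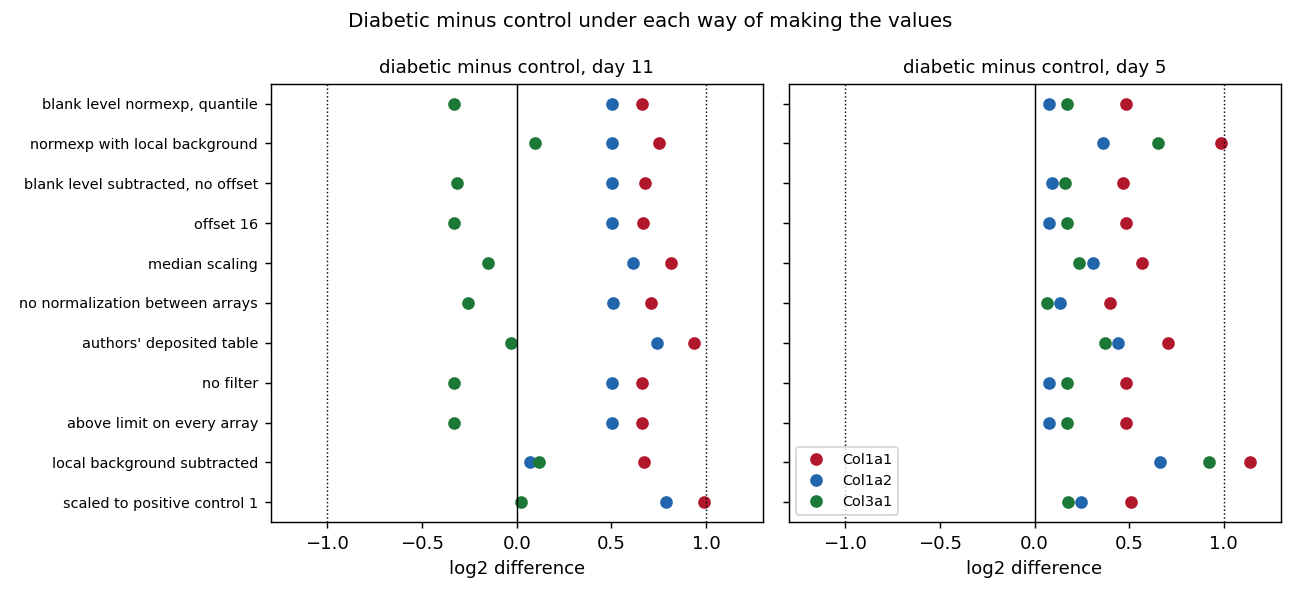
Diabetic minus control log2 difference of each collagen on day 11 (left) and day 5 (right) under 11 ways of making the values, 1 point per gene and setting and no replicates, with 2-fold marked by dotted lines. Col1a1 stays between 0.66 and 0.99 on day 11 and between 0.40 and 1.14 on day 5. It is past 2-fold in 1 setting only (local background subtracted, day 5), where 27.7% of 16438 genes were. The points of Col3a1 on day 11 lie on both sides of zero.

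The diabetes difference of the 3 genes did not move alike between the days. From day 5 to day 11 it changed by 0.18 on the log2 scale for Col1a1, by 0.43 for Col1a2 and by -0.50 for Col3a1. The sign for Col1a1 turned in both settings that use the local background and that for Col1a2 with that background subtracted, while Col3a1 kept its sign in all 10. No residual degree of freedom was left to test these changes. Likeness was measured as the root mean square distance between log2 profiles centred on their own mean, against the mean profile of the 3 collagens, among genes that exceeded the blank-spot limit on every array. The nearest of 14679 other genes were ENSRNOG00000020748, at 0.0166, and ENSRNOG00000016338, at 0.0249, both without a symbol here. The collagens themselves lay farther from their own mean, Col1a2 at 0.106, Col1a1 at 0.171 and Col3a1 at 0.218. The nearest genes were picked for nearness out of all 14679 and the collagens were not, so this order is not a test. Of the 14679 other genes, 412 lay nearer to that mean than Col1a2, 2018 nearer than Col1a1 and 5369 nearer than Col3a1.

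The collagen spots lie near the upper end of the intensity range, where the kind of value changes. Each file was scanned at 3 gains, and all but 7 to 11 values per array are fractional; the whole numbers all lie at 32283 or higher, and the fractional ones at 32790 or lower. Col1a1 and Col1a2 had a whole number on every array except control callus of day 11, their lowest. Col3a1 had a whole number on both day 5 arrays and a fractional one on both day 11 arrays. Diabetic callus of day 11 was thus the only array where Col3a1 differed in kind from the type I genes. The part of this change of kind in the differences and in the ratios was not tested.

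The local background beside the collagen spots was also high and uneven between arrays. For Col1a1 it was 24079 in diabetic and 14472 in control callus on day 11, and 11258 in diabetic and 18753 in control callus on day 5. As a share of the spot median, it was 24.7% to 27.0% for the 3 genes in diabetic callus of day 5, against 49.3% to 58.4% in control callus of day 5. On day 11 it was 53.4% to 60.1% in diabetic callus and 42.2% to 64.1% in control callus. With this background subtracted and no normalization between arrays, the log2 differences of day 5 were 1.14 for Col1a1, 0.66 for Col1a2 and 0.92 for Col3a1, and those of day 11 were 0.67, 0.07 and 0.12.

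**Figure D5:**
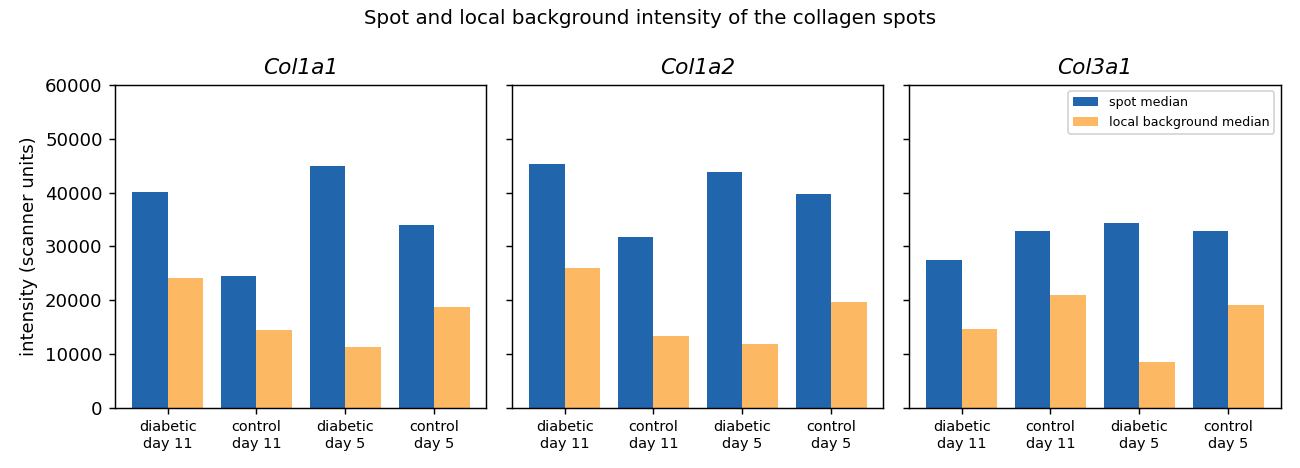
Spot median and local background median of each collagen spot on the 4 arrays, in scanner intensity units, 1 spot per bar. Diabetic callus of day 5 has the lowest local background for each gene, 11258 for Col1a1, 11793 for Col1a2 and 8474 for Col3a1.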

How the data were processed

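Per the file headers, each array file holds the median intensity of every spot and a local background intensity, scanned at 3 gains; the sources used here name neither scanner, software nor the rule that joins the gains. The authors also deposited a table of scaled intensity values. Per the labels' protocols, aRNA was amplified with amino allyl nucleotides and coupled to Cy5. The mean of 5808 blank spots served as background for the spot medians in the normexp method (offset 50) of limma 3.58.1, run in R 4.3.3. After removal of controls and 13 flagged gene probes, 20161 genes were quantile normalized and log2 transformed. A gene was tested if above the blank-spot limit (mean plus 2 SD after 5% trimming) on at least 1 array of a comparison. At least 2-fold counted as apart. The additive limma fit used Benjamini-Hochberg adjustment. It was run on simulated data with less noise than the control spots and no change of the diabetes difference between days. That run checks the computation only, not the fit to these data. The symbols of the 3 IDs came with the choice of genes. Members and lists were chosen with earlier results of these data known. Alternatives were other backgrounds, offsets, scalings, gene filters, the deposited table and limma's trend and robust options. The alternative by scanner gain was not run, because the files used here give flags but no signal per gain.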

Additional observations from a re-analysis of the deposited data

Results flagged for a closer look

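The diabetic minus control difference of Col3a1 had opposite signs on the days, -0.33 on day 11 and 0.17 on day 5, a change of -0.50 on the log2 scale. This change was not tested, since each group is 1 array. The local background, which the main comparisons do not use, was far above that of blank spots beside every collagen spot. Its lowest value over the 4 arrays was 11258 for Col1a1, 11793 for Col1a2 and 8474 for Col3a1, where the median local background of blank spots was 33.6 to 36.9 per array. Over all genes the local background followed the signal of its own spot, with a correlation of the log values of 0.981 to 0.990 across genes within each array.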

How the results depend on the processing

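With 1 array per group, neither replicates nor depth could be varied, and the number of arrays limits the precision. Scaling to positive control 1 and plain subtraction of the local background were chosen after seeing the data. The averaged diabetes difference of Col3a1, -0.08, turned positive with normexp on the local background (0.38), with the local background subtracted (0.52), with median scaling (0.0409), in the authors' deposited table (0.17) and with scaling to positive control 1 (0.10); limma's adjusted p was 0.707 to 0.963 over its alternatives. For Col1a1 the adjusted p in limma was 0.0134 to 0.865 over its alternatives, below 0.05 only with scaling to positive control 1 (estimate 0.75), where 916 of 17661 genes passed and the median of all genes shifted by 0.22 on day 11. Trend and robust options passed 3 genes, none of them a collagen. The median of the 3 collagens, diabetic minus control on day 11, was 0.12 with the local background subtracted and no normalization, 0.50 with normexp on the local background alone, 0.74 in the authors' deposited table and 0.79 with positive control 1. On day 5 it was 0.65 (normexp on the local background), 0.92 (subtracted) and 0.44 (authors' deposited table). Day 11 minus day 5 it was -0.77, -1.02, -0.17 (no normalization) and -0.0867 (positive control 1) in diabetic callus, and -0.21 in control callus with the local background subtracted. The change of the diabetes difference between days had a median over the 3 collagens of 0.18 in the main analysis. This median was -0.23 with normexp on the local background, -0.59 with it subtracted and 0.48 with positive control 1. The Col3a1 to Col1a1 change on day 11 was -0.65 and -0.56 with the local background (normexp and subtracted), and that from day 5 to day 11 in diabetic callus 0.22 (normexp). The causes were not tested. Genes at least 2-fold apart numbered 702 to 5080 between conditions on day 11 (main 714), 254 to 4552 on day 5 (257), 222 to 5008 between days in diabetic callus (227) and 275 to 4150 in control callus (283). No paired analysis was possible because each group is 1 array.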
